A study of Mus musculus with 31 samples.

Results

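Krüppel-like factors are transcription factors that share a run of zinc fingers, and 8 of them were followed here across livers that lack one or both isoforms of ChREBP, the carbohydrate-responsive transcription factor encoded by Mlxipl. The 8 genes were Klf3, Klf6, Klf9, Klf10, Klf11, Klf12, Klf13 and Klf15, chosen by gene name among 23968 gene names measured. They were read by 16 of the 36059 probes kept. Another probe on the array, for a second transcript of Klf10, did not pass the filter on the scanner's flags. The values are log2 intensities after quantile normalization over 31 arrays, 1 array per mouse, so a difference of 1 is a doubling.

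The livers came from male C57BL6/J mice that had gone 24 hours without food and then had food again for 18 hours, while they drank water holding 20% glucose. The ChREBPβ-deficient group held 8 mice in which genome editing with Cas9 had removed exon 1b of Mlxipl, the exon specific to the shorter β isoform, and 8 WT littermates were their controls. The total ChREBP-KO group held 7 mice that lack the α and β isoforms, with 8 WT littermates as controls. All 31 mice had the same fast, refeeding and glucose, no fasted group was among them, and both deletions were germline, so every tissue carried them. The editing had yielded several founder lines and the mice came from several litters, and the labels tie no mouse to a line or litter. The age of the mice was not given in the sources used here.

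Members of this family bind GC-rich and CACCC-type promoter sequences and act as activators or repressors through the cofactors they recruit. In liver, Klf15 is known for the control of amino acid catabolism and gluconeogenesis during fasting, and Klf9 for its response to glucocorticoids. Klf10 and Klf11, first described as TGF-beta-inducible genes, respond to glucose in hepatocytes, and Klf10 is also under clock control. Klf6 is an immediate early gene of stellate cells and hepatocytes, and Klf3, Klf12 and Klf13 are broadly expressed regulators, the first 2 acting with the corepressor CtBP.

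Promoters of the glucose-linked Klf11, the fasting-linked Klf9 and Klf15, and Klf6, which rose most, are shown first, since ChREBP binds DNA at pairs of E-box-like sequences. RefSeq windows of GRCm38.p6 were at hand for 7 of the 8 genes, all but Klf10. Each window below runs from 250 bases before the transcription start to 30 bases after it, 5′ to 3′ on the strand of the gene, and capitals mark each match to the E-box CACGTG, which reads alike on both strands.
Klf6 (chr13:5861239-5861518, plus strand): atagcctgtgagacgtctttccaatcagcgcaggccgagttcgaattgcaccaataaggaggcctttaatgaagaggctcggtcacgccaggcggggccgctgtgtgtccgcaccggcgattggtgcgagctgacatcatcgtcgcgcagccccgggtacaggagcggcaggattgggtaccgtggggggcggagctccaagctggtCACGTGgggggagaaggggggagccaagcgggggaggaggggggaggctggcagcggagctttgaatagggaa
Klf11 (chr12:24651121-24651400, plus strand): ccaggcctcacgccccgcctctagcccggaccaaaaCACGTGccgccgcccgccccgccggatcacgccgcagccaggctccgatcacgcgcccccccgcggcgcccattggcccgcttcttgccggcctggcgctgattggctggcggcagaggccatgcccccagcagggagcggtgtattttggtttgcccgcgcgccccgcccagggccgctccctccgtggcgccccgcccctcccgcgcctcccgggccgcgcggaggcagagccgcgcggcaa
Klf15 (chr6:90462326-90462605, plus strand): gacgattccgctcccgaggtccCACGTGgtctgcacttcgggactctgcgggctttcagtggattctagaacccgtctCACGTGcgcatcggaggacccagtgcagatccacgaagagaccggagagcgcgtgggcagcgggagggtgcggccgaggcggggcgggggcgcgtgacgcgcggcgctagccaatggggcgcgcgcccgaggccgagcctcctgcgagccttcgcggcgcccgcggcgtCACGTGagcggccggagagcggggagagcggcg
Klf9 (chr19:23140976-23141255, plus strand): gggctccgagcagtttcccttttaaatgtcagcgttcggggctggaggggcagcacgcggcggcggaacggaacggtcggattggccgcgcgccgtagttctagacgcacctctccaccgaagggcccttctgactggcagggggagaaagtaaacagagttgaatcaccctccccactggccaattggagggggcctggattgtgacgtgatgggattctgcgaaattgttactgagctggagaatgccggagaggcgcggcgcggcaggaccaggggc
The E-box was found in 3 of the 7 windows, against 6.79% of the 32851 windows in the table. Klf15 held 3 matches, beginning at -228, -172 and -3 from the start, and 0.0791% of all windows held 3 or more. Klf6 held 1 match at -43 and Klf11 held 1 at -214, while the Klf9 window held none. The GC-box GGGCGG, searched on both strands, was found in 5 of the 7 windows and in 34.7% of all windows. The search was for single exact matches, and spaced pairs were not searched. A match gives only the letters in these windows and says nothing of binding in these livers.

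Every one of the 31 arrays had between 34131 and 38612 spots that passed the detection flags. The scanner flagged the 16 Klf probes as well above background on all 31 arrays and none as an outlier. A separate flag, whether a spot was found at its expected place, was missing on some arrays for 5 of them. For the Klf10 probe it held in 3 of 8 WT littermates and 7 of 8 ChREBPβ-deficient mice of the β line, and in 8 of 8 WT littermates and 6 of 7 total ChREBP-KO mice. In the total line it held in 3 of 8 WT littermates and 6 of 7 knockout mice for Klf13 probe A_55_P2022082, and in 3 and 3 for A_52_P281659. For Klf12 it held in 5 and 6 (A_52_P215152) and in 6 and 5 (A_52_P617636). The values below include all mice. Hepatocyte markers were high in all groups. Their list means were 16.59 to 16.75 in WT littermates of the total line and 16.82 to 17.02 in total ChREBP-KO mice, without overlap. Of the 6 markers 3 were called higher in total ChREBP-KO mice and none lower, where 14.4% of all gene names were called higher. Mlxipl itself, read by probe A_55_P2119957 whose place relative to the deletions was not examined, was lower by 1.16 (log2) in total ChREBP-KO mice (SE 0.07, limma adjusted p = 8.05e-13) and by 0.45 in ChREBPβ-deficient mice (SE 0.07, limma adjusted p = 0.0152). Each group's 7 or 8 values for Mlxipl lay apart from those of its littermates. Some arrays stood out for markers of other tissues. Exocrine pancreas markers were high in 3 WT littermates of the total line, adipocyte markers in 2 of those WT littermates, 1 total ChREBP-KO mouse and 2 ChREBPβ-deficient mice, and stellate cell or cholangiocyte markers in 2 total ChREBP-KO mice. Results that these arrays could touch are given below with and without them. In whole liver, fewer cells of a type and less RNA per cell cannot be told apart.

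In total ChREBP-KO mice, 13 of the 16 Klf probes passed the test (limma, Benjamini-Hochberg adjusted p under 0.05 over all probes), 12 of them higher and 1 lower than in WT littermates. Over all probes the test called 29.1%, with 14.5% higher and 14.6% lower. By gene, taking the probe with the highest mean, 6 of the 8 genes were higher, Klf10 was lower and Klf11 did not pass, where 14.4% of all gene names were called higher and 14.8% lower. The median log2 difference was 0.54 over the 16 Klf probes and 0.01 over all probes. At 6 Klf probes the lowest knockout value exceeded the highest littermate value, as it did at 3.26% of all probes. At the Klf10 probe the highest knockout value was under the lowest littermate value, as it was at 4.14% of all probes.

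**Figure D1:**
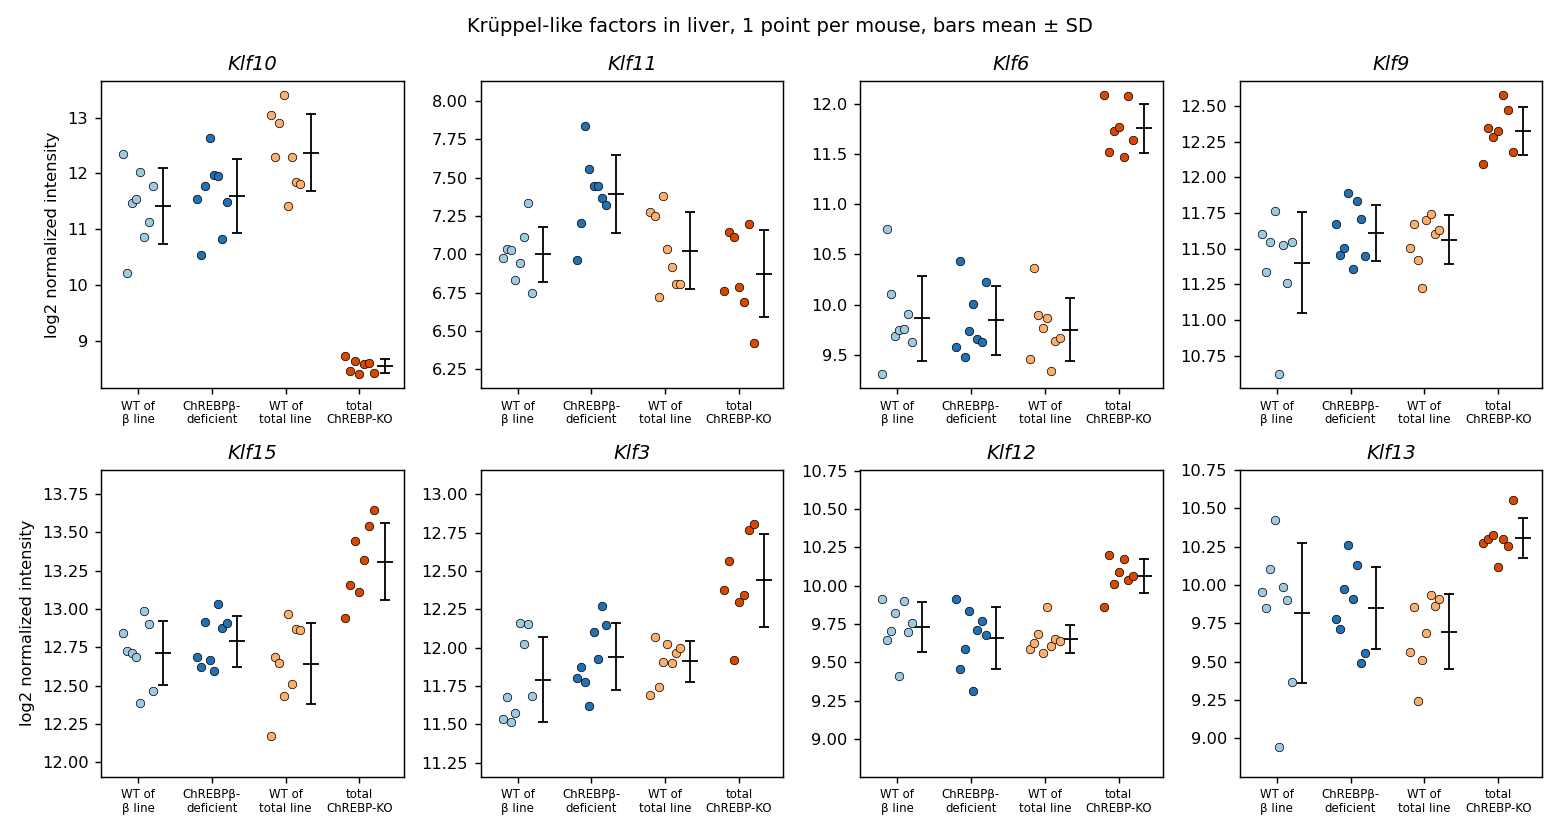
Log2 normalized intensity of each Klf gene (y axis, probe with the highest mean, a separate scale of at least 2 log2 units in each panel) in the 4 groups (x axis), with 1 point per mouse and bars for mean ± SD. The 7 total ChREBP-KO mice lie between 8.42 and 8.73 for Klf10 and between 11.5 and 12.1 for Klf6, clear of all other mice, while the 4 groups overlap for Klf11.

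Klf10 showed the greatest difference of the family. The gene encodes a repressor that recruits Sin3 and is induced by glucose and by the clock. Its probe A_55_P2022074 lies at mm9 chr15:38224255-38224314 on the minus strand. In total ChREBP-KO mice its log2 intensity was 8.42, 8.6 and 8.73 (lowest, median and highest of 7). In their WT littermates the same 3 values were 11.4, 12.3 and 13.4 (n = 8). Every knockout mouse thus lay far below the lowest WT littermate, and the spread among the knockout mice (SD 0.12) was narrower than among the littermates (SD 0.69). The log2 difference was -3.81 (SE 0.29, 95% confidence interval -4.41 to -3.22, limma adjusted p = 4.34e-11), a level 14.1-fold lower, and 12 of the 36059 probes had a more negative value.

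Over the 16 mice of the β line Klf10 ranged from 10.2 to 12.6, so that no mouse with ChREBPα reached the level of the total knockout. The values were 10.2, 11.5 and 12.3 (lowest, median and highest of 8) in WT littermates and 10.6, 11.7 and 12.6 in ChREBPβ-deficient mice. Both groups covered the same range, and the difference was 0.17 (95% confidence interval -0.41 to 0.74, limma adjusted p = 0.9998). With no filter on spots, 14 of 17 Klf probes were called in total ChREBP-KO mice, 2 of them lower, where 17.5% of all probes were called. The probe of the second Klf10 transcript, A_55_P2500722 at mm9 chr15:38221219-38221278, was not among the 16 probes of the main fit. It was well above background in 8 of 8 WT littermates of the total line, in 0 of 7 total ChREBP-KO mice, and in 5 of 8 mice of each group of the β line.

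Klf6 went the other way. It encodes an activator that is induced early after injury, and its probe A_51_P451346 lies at mm9 chr13:5869371-5869430 on the plus strand. Total ChREBP-KO mice had log2 values of 11.5, 11.7 and 12.1 (lowest, median and highest of 7), against 9.34, 9.72 and 10.4 in WT littermates (n = 8). No knockout mouse overlapped the littermates. Klf6 rose by 2.0 on the log2 scale (SE 0.17, 95% confidence interval 1.66 to 2.34, limma adjusted p = 2.28e-10), 4.00-fold, and 26 of the 36059 probes had a greater positive difference. The β line ranged from 9.31 to 10.8 over its 16 mice, below every total ChREBP-KO mouse, with means of 9.86 ± 0.43 in WT littermates and 9.84 ± 0.34 in ChREBPβ-deficient mice (SD, n = 8 each).

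Stellate cell markers were higher in some of the same mice. Of the 6 markers measured, Reln and Dcn were called higher in total ChREBP-KO mice, by 0.80 and 0.40 (log2), none lower, and 4 did not pass. Over all gene names 14.4% were called higher. The mean over the list ran from 9.50 to 10.7 in knockout mice and from 9.29 to 9.78 in their WT littermates. Knockout replicates 1, 4 and 6 lay above the littermates, and the other knockout mice within their range. Without the 2 knockout arrays high in stellate cell or cholangiocyte markers the Klf6 difference was 1.93 (limma adjusted p = 1.19e-08), against 2.0 with them. Of the 2, replicate 1 was high in stellate cell markers and replicate 5 in cholangiocyte markers alone. Knockout replicate 4, with a stellate list mean of 10.4, stayed in that fit. The part of stellate cell content in the Klf6 difference was not tested.

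Klf9 and Klf15, the genes linked to fasting and glucocorticoids, were both higher in total ChREBP-KO mice. For Klf9, a repressor and glucocorticoid target, probe A_65_P19780 at mm9 chr19:23240410-23240469 gave 12.1, 12.3 and 12.6 (lowest, median and highest of 7) in knockout mice. WT littermates had 11.2, 11.6 and 11.7, so that the groups did not overlap. The difference was 0.76 (SE 0.12, limma adjusted p = 9.52e-06), 1.70-fold. The other Klf9 probe, A_65_P07684 at mm9 chr19:23242324-23242383, gave 0.80 (SE 0.14, limma adjusted p = 8.20e-05), again with no overlap.

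Klf15, an activator of genes for amino acid breakdown, was read by probe A_55_P2793729 at mm9 chr6:90424982-90425040. Its values in total ChREBP-KO mice were 12.9, 13.3 and 13.6 (lowest, median and highest of 7), and in WT littermates 12.17, 12.66 and 12.97. The lowest knockout mouse, at 12.94, lay just under the highest littermate, at 12.97. Klf15 rose by 0.66 (SE 0.11, 95% confidence interval 0.44 to 0.89, limma adjusted p = 3.32e-05), 1.59-fold. Its promoter is the one with 3 E-box matches printed above, whose part in this difference was not tested. In the β line the WT littermates averaged 12.71 ± 0.21 and the ChREBPβ-deficient mice 12.79 ± 0.17 (SD, n = 8 each), a difference of 0.08 (95% confidence interval -0.15 to 0.30).

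Klf11, the other glucose-linked gene and a close relative of Klf10, did not follow it. Probe A_51_P205820 at mm9 chr12:25347324-25347383 read 6.42, 6.79 and 7.20 (lowest, median and highest of 7) in total ChREBP-KO mice and 6.72, 6.98 and 7.38 in WT littermates. The groups overlapped over most of their range. The difference was -0.15 (95% confidence interval -0.40 to 0.10, limma adjusted p = 0.393). WT littermates averaged only 7.02 at this dim probe, so a fall as large as that of Klf10 may not have shown in full.

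Klf3, Klf12 and Klf13 were higher in total ChREBP-KO mice by smaller amounts, and their probes did not all move alike. For Klf3, a CtBP-dependent repressor, all 3 probes were called, by 0.53 (A_55_P1972842), 0.56 (A_66_P115389) and 0.76 (A_51_P492640), and 1 of the 3 separated the groups. For Klf12, also a CtBP-dependent repressor, 3 of 4 probes were called, by 0.41 (A_52_P817975), 0.44 (A_52_P215152) and 0.49 (A_52_P617636). The remaining Klf12 probe, A_55_P2729044, lies at mm9 chr14:100548495-100548554, away from the others at mm9 chr14:100265567-100274033, and gave -0.02 (SE 0.18, limma adjusted p = 0.963). For Klf13, a repressor that recruits Sin3, 2 of 3 probes were called, by 0.61 (A_55_P2022082) and 0.63 (A_55_P2244142). The spot of A_55_P2022082 was flagged as found in only 3 of 8 WT littermates, against 6 of 7 knockout mice. The array annotation puts A_55_P2244142 on the plus strand and the other Klf13 probes on the minus strand. The third, A_52_P281659, gave 0.32 (SE 0.15, limma adjusted p = 0.0957).

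**Figure D2:**
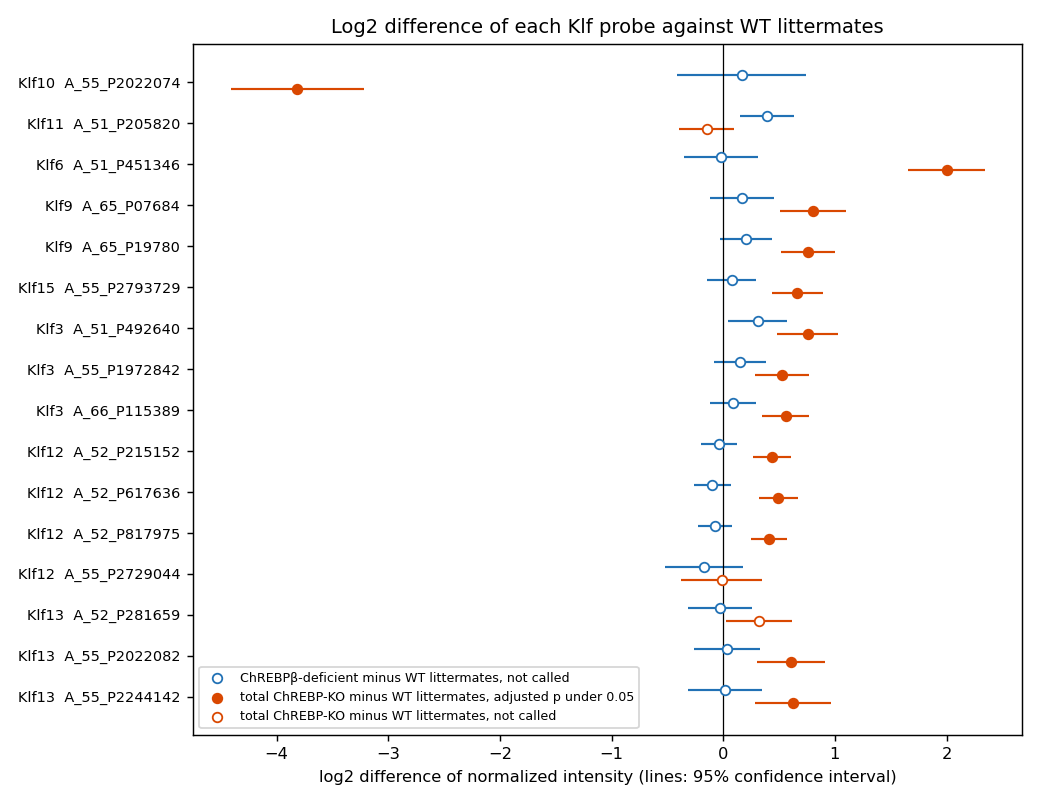
Log2 difference (x axis) of each of the 16 Klf probes (y axis, gene and probe name) in both mutant groups against their respective WT littermates, with 95% confidence intervals as lines and filled points for an adjusted p under 0.05. The total ChREBP-KO values run from -3.81 to 2.0, while the ChREBPβ-deficient values stay between -0.17 and 0.39 and none is called.

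In ChREBPβ-deficient mice, 0 of the 16 Klf probes passed the test, and the test called 0.00277% of all probes, a single one. The exact Mann-Whitney test, unadjusted, gave 2 Klf probes of 16, against 6.13% of all probes. At an unadjusted p under 0.05 limma also gave 2, both higher, against 4.98% of all probes. The first was Klf11, at 7.39 ± 0.25 in ChREBPβ-deficient mice and 7.0 ± 0.18 in WT littermates (SD, n = 8 each), a difference of 0.39 (95% confidence interval 0.15 to 0.63, limma unadjusted p = 0.00227, adjusted p = 0.843). Of the 8 ChREBPβ-deficient mice, the lowest was 6.97 and the highest 7.83, and in WT littermates 6.75 and 7.34, so that the groups overlapped. The second was the Klf3 probe A_51_P492640, at 0.31 (limma unadjusted p = 0.0232, adjusted p = 0.989). For Klf6 the interval of the difference was -0.35 to 0.31, and the 2.0 of total ChREBP-KO mice lies outside it.

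The effects of the 2 deletions were then compared with each other, as the log2 difference in total ChREBP-KO mice minus that in ChREBPβ-deficient mice. This passed the test for 10 of 16 Klf probes, 8 more positive in total ChREBP-KO mice and 2 more negative, where 15.1% of all probes passed. The count was 6 with slide as a fixed block, 2 within the first scan day and 7 within the second. Of all probes, 10.9%, 4.22% and 5.52% passed in these fits. The differences were -3.98 for Klf10 (SE 0.41, limma adjusted p = 5.60e-08) and 2.02 for Klf6 (SE 0.23, limma adjusted p = 3.91e-07). They were 0.59 for Klf15 (SE 0.16, limma adjusted p = 0.00897) and 0.55 for Klf9 (SE 0.16, limma adjusted p = 0.0191). All 3 called Klf12 probes of the total line differed, by 0.47 to 0.59. Klf11 gave -0.54 (SE 0.17, limma adjusted p = 0.0271), made up of -0.15 and 0.39 that were each short of the threshold, and without the arrays high in adipocyte markers the adjusted p was 0.118. No Klf13 probe passed, and of the 3 Klf3 probes 1 did (0.47, limma adjusted p = 0.0234).

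The WT littermates of the 2 lines, which share the genotype and the refeeding, differed at 1 of the 16 Klf probes, where 17% of all probes were called. That probe was Klf10, with a mean of 12.37 ± 0.69 in the total line and 11.42 ± 0.68 in the β line (SD, n = 8 each). The difference of 0.95 (SE 0.28, limma adjusted p = 0.0195) was 1.60 among the arrays of the first scan day (limma adjusted p = 0.0346) and 0.30 among those of the second (limma adjusted p = 0.643). It lost the call without replicate 2 of the β line (0.78, limma adjusted p = 0.0516) or replicate 4 of the total line (0.80, limma adjusted p = 0.0513). Within the same scan days the Klf10 difference in total ChREBP-KO mice was -4.34 and -3.29, both called. In the order of the group means of Klf10, total ChREBP-KO mice came lowest, then the 2 groups of the β line, whose values overlapped, then the WT littermates of the total line.

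Clock genes differed with the total ChREBP genotype too, and Klf9, Klf10 and Klf15 are known to cycle over the day. Dbp, a transcription factor driven directly by CLOCK and BMAL1, read 12.2 to 14.0 in total ChREBP-KO mice and 9.05 to 10.9 in their WT littermates, a difference of 3.19 (SE 0.99, limma adjusted p = 0.0143). In the β line Dbp ranged from 8.22 to 15.3 and the mice fell into high and low sets that both genotypes shared. Relations of the Klf genes with Dbp over mice are given further below. Over those 16 mice Klf10 ran from 10.2 to 12.6 and Klf6 from 9.31 to 10.8. The hour at which the livers were taken was not given in the sources used here, and the part of the clock in the Klf differences was not tested. With the Dbp level as a covariate of the fit, the difference in total ChREBP-KO mice was -3.99 for Klf10, 2.01 for Klf6, 0.65 for Klf15 and 0.59 for Klf9, all called, while Klf13 went from 0.61 to 0.29 (limma adjusted p = 0.117). With this covariate 11 of the 16 Klf probes were called, where 23.2% of all probes were. Dbp did not overlap between the genotypes of the total line, so this fit cannot tell the clock apart from the genotype.

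**Figure D3:**
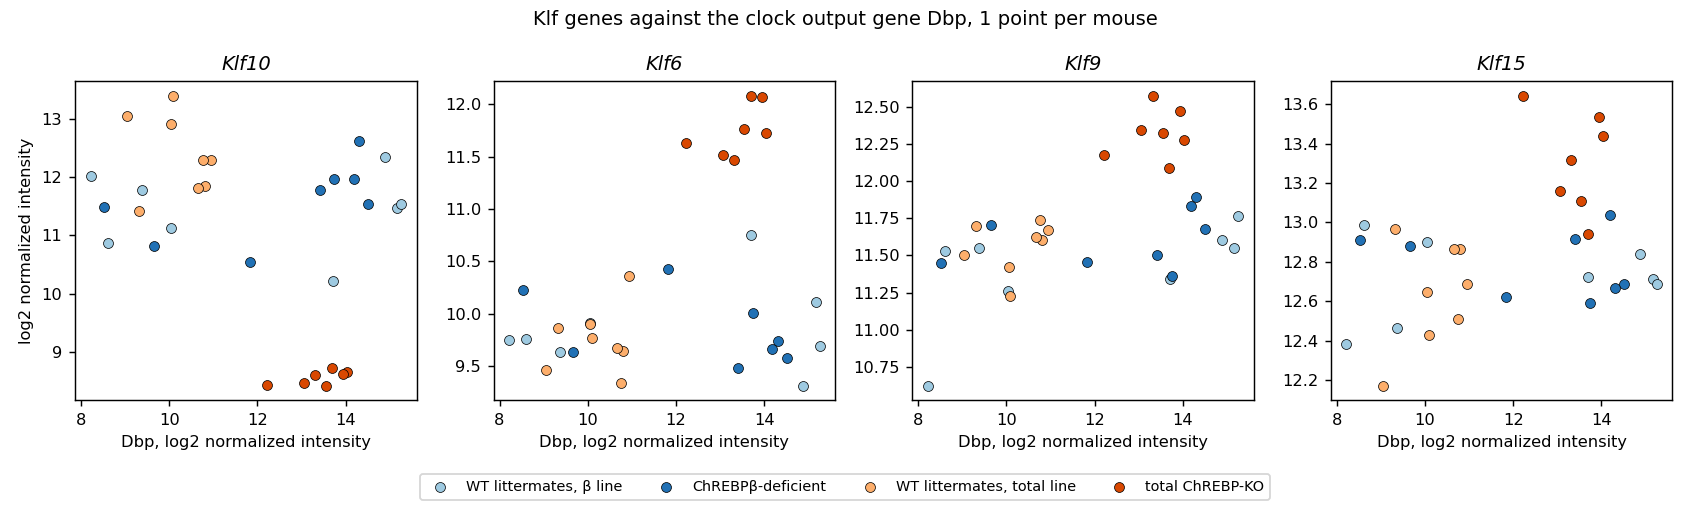
Log2 normalized intensity of Klf10, Klf6, Klf9 and Klf15 (y axes) against that of the clock output gene Dbp (x axis), 1 point per mouse, colored by group. The β line spans Dbp from 8.22 to 15.3, with few mice at the Dbp levels of the total ChREBP-KO mice (12.2 to 14.0). The WT littermates of the total line lie at 9.05 to 10.9, apart from their knockout mice. The knockout mice have lower Klf10 and higher Klf6 than every mouse of the β line.

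Among the mice of 1 group, some members varied together. After centring each gene on its group means, 44 relations were computed over the 31 mice, the 28 pairs of Klf genes and each Klf gene with Dbp and Fasn. Of the 28 pairs, 2 passed an adjusted p of 0.05. Klf9 and Klf12 had r = 0.72 and rho = 0.65 (permutation of mice within groups, 100000 resamples, two-sided p = 1e-05 for r, the smallest these can give, and adjusted p = 0.00044). Without the 2 mice farthest from the Klf9 median r was 0.65, and it was 0.78 within the β line and 0.54 within the total line. Klf9 and Klf13 had r = 0.65 and rho = 0.49 (permutation p = 0.00187, adjusted p = 0.0206), falling to 0.44 without those 2 mice. Klf10 and Fasn, the fatty acid synthase gene that ChREBP activates, had r = 0.55 and rho = 0.50 (permutation p = 0.00343, adjusted p = 0.0302), and 0.43 without the 2 mice farthest from the Klf10 median. With Dbp, Klf3 had r = -0.61 and Klf13 had r = 0.66 (permutation adjusted p = 0.011 each), and no other Klf gene passed. Within the β line, where Dbp fell into high and low sets, these were -0.80 and 0.73. Within the total line they were -0.15 and 0.20. Klf10 with Klf15 had r = -0.41 (permutation adjusted p = 0.101), which did not pass.

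Over all 23967 other gene names, the one whose group-centred values were most like Klf10 was Txnip, a glucose-induced arrestin-like gene, with r = 0.90 and rho = 0.84 over 31 mice, and r = 0.87 without the 2 mice farthest from the Klf10 median. The next 2 were array features without a gene symbol, at 0.84 and 0.83. Klf15 was most like Foxo1, a forkhead factor of the fasting response (r = 0.79), then an unnamed feature and the receptor gene Il15ra (r = 0.76). For Klf9 the features with the highest r, 0.83 and 0.78, had no gene symbol, and Gins4, a replication gene, followed at 0.75. Klf11 had no gene name above 0.68, and Zfp36l2, an mRNA-decay gene, stood second at 0.66. These are descriptions of the highest of many values, without a test.

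Genes related to the members were taken from lists, whose counts can be read against the 14.4% of all gene names called higher and the 14.8% called lower in total ChREBP-KO mice. Of 18 other Klf and Sp genes listed, 15 were measured and 4 were called, all higher, with a median of 0.08 over the 15. The called genes were Klf4 (1.06, limma adjusted p = 0.000151), Sp5 (0.98), Klf16 (0.43) and Sp4 (0.34), while the ubiquitous activators Sp1 and Sp3 had values of -0.03 and 0.04. Of 10 corepressors and partners that bind Klf proteins, 3 were called, all higher: Sin3b (0.34), Wwp1 (0.25) and Ctbp2 (0.21). The list had a median of -0.00, and the scaffold Sin3a had a value of 0.00.

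Genes linked to the members moved in several directions. Of 19 glucose- and ChREBP-responsive genes, 17 were lower in total ChREBP-KO mice and none higher, with a median of -2.72, from Thrsp (-4.63) and Pklr (-3.99) to Txnip (-1.23). The 2 that did not pass were Arrdc4 (-0.23) and Fgf21 (-0.15). Klf10, at -3.81, lay within the range of the called genes of this list. Klf11, not called at -0.15, lay near the 2 listed genes that did not pass. Of 16 genes of amino acid catabolism and gluconeogenesis linked to Klf15, 5 were higher, among them Tdo2 (0.94) and Gpt (0.76), whose enzymes break down tryptophan and alanine. In the same list G6pc, glucose-6-phosphatase, was lower by 4.79 (log2) and Got1 by 0.87, and 9 did not pass.

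Of 10 glucocorticoid-responsive genes, 1 was higher, Per1 (1.5), which is also a clock gene, and 1 lower, Dusp1 (-1.60). The receptor target Tsc22d3 had a value of -0.18 (limma adjusted p = 0.669) and Fkbp5 of 0.14 (limma adjusted p = 0.261), beside the 0.76 of Klf9. Of 17 clock and clock output genes measured, 6 were higher and 5 lower, among them Dbp (3.19), Per1 (1.5), Bhlhe40 (-2.08) and Arntl (-1.38). Of 15 TGF-beta and immediate early genes, Atf3 (1.80) and Jun (1.02) were higher, and Myc (-0.72), Tgfbr1 (-0.57) and Tgfbr2 (-0.52) lower. Jun separated the groups while Atf3 did not, and Egr1 (0.35) and Fos (0.43) did not pass. In ChREBPβ-deficient mice none of the genes in these lists passed the test.

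**Figure D4:**
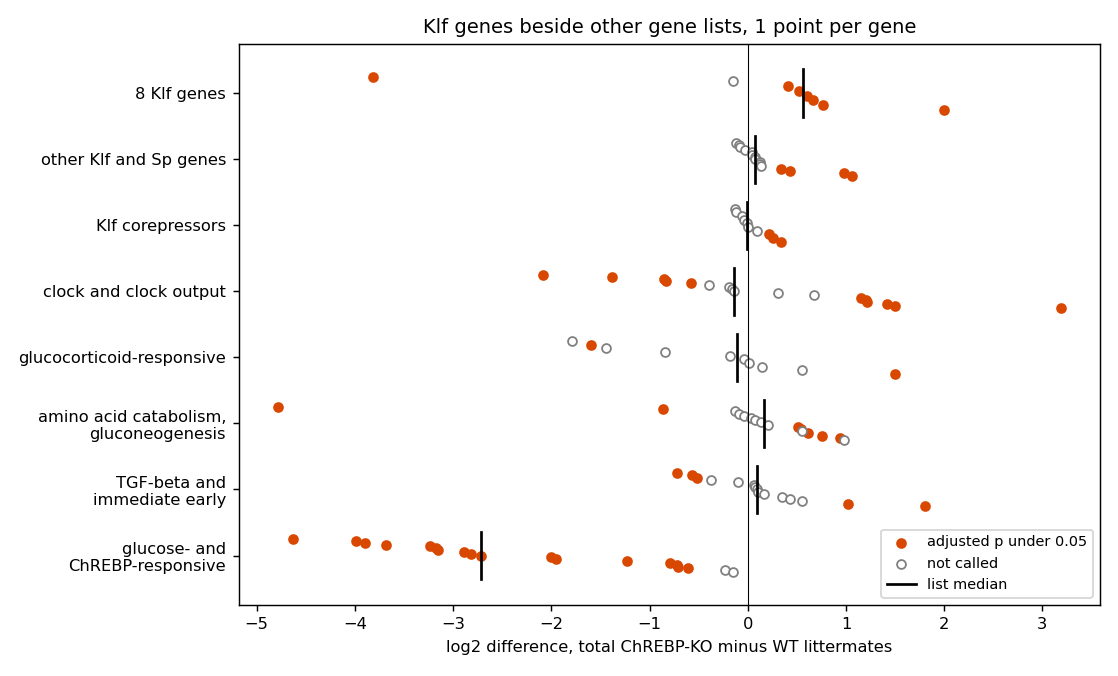
Log2 difference in total ChREBP-KO mice against WT littermates (x axis) for the 8 Klf genes and 7 other gene lists (y axis), with 1 point per gene, filled where the adjusted p is under 0.05, and a bar at each list's median. The list medians run from -2.72 for the glucose- and ChREBP-responsive genes to 0.57 for the 8 Klf genes, in which Klf10 stands alone at -3.81.

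The main Klf differences were as large without the arrays that stood out, which were chosen for this after the data were seen. Without the 3 littermate arrays high in exocrine pancreas markers, the difference in total ChREBP-KO mice was -4.05 for Klf10, 2.08 for Klf6, 0.81 for Klf9 and 0.76 for Klf15. Without the 5 arrays high in adipocyte markers the same 4 values were -4.00, 2.17, 0.76 and 0.72. In each of these fits 13 of the 16 Klf probes were called, where 25.5% and 26.2% of all probes were.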

How the data were processed

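RNA of 31 mouse livers had been hybridized to one-color Agilent arrays (SurePrint G3 Mouse GE v2, annotated on mm9). The deposited files are the output of Agilent's Feature Extraction 10.10.1.1, which lists an intensity for every spot, and the authors' own table of log2 values filtered by spot weights, quantile normalized and reduced to 1 value per probe. No reads are involved, so precision rests on the number of mice. Here the median signal of a spot was put on the log2 scale. A spot was used where it was found, positive and above background by the scanner's flags in 26 or more of the arrays, or in 6 or more of any single group. Values were quantile normalized and spots of 1 probe name reduced to their median. Tests used R 4.3.3 with limma 3.58.1 on 1 model of 4 group means, with Benjamini-Hochberg adjustment over 36059 probes and a threshold of 0.05. A gene is given by its probe with the highest mean, and levels of different probes were not compared. Groups and replicate numbers came from the sample labels. No sample label ties a number to a litter, and replicate 3 of the total ChREBP-KO mice was not analysed here. The fit was tested on simulated data. The Klf genes, the gene lists and the tests were chosen with earlier results of these data known. Named beside the Klf genes are Mlxipl, up to 4 genes a list with the greatest called difference or the opposite direction, further list members picked with their values in view, and the 3 gene names most like Klf9, Klf10, Klf11 and Klf15. Promoter sequences are RefSeq's for GRCm38.p6 and probe positions are mm9, and the 2 were not mixed. The alternatives covered signal, scaling, filter, slide, scan day, replicate number, variance model, the methods' Mann-Whitney test and left-out mice.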

Additional observations from a re-analysis of the deposited data

Results flagged for a closer look

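For 10 Klf probes the effect in total ChREBP-KO mice differed from that in ChREBPβ-deficient mice by the test of the difference itself (limma, adjusted p under 0.05), and for 6 with slide as a fixed block and 2 within the first scan day. These fits called 15.1%, 10.9% and 4.22% of all probes. The log2 values were -3.98 for Klf10 and -0.54 for Klf11, and 2.02 for Klf6, 0.59 for Klf15 and 0.47 for Klf3 (A_66_P115389). For Klf9 they were 0.55 (A_65_P19780) and 0.64 (A_65_P07684), and for Klf12 0.59 (A_52_P617636), 0.48 (A_52_P817975) and 0.47 (A_52_P215152).

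Of 64 pairs of a Klf probe and a group, 3 had 1 mouse far from the rest, where chance flags about 1 in 20. Replicate 5 of the WT littermates of the β line had the lowest Klf9, at 10.6 by probe A_65_P19780, against 11.3 to 11.8 in the other 7 mice, and at 10.07 by probe A_65_P07684, against 11.0 to 11.4. Replicate 5 of the WT littermates of the total line had the highest Klf12 by probe A_52_P817975, at 9.86 against 9.56 to 9.68 in the others.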

How the results depend on the processing

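An added fold of at least 1.5 was applied to probe counts alone and is left out of the gene results here. Over every other alternative that measured the gene, the log2 difference in total ChREBP-KO mice kept its direction and its call for Klf10 (-4.34 to -3.29), Klf6 (1.88 to 2.17), Klf9 (0.59 to 0.81), Klf15 (0.59 to 0.78) and Klf12 (0.33 to 0.45). Klf11 was never called (-0.21 to -0.07). Klf3 missed the threshold within the first scan day (0.44, limma adjusted p = 0.067), as did Klf13 (0.71, limma adjusted p = 0.0582), which also missed it with Dbp as a covariate (0.29, limma adjusted p = 0.117). The difference between the 2 effects lost its call under 8 of 50 alternatives for Klf11, 2 for Klf9 (within the first scan day and with Dbp as a covariate), 2 for Klf12 (within each scan day) and 1 for Klf15 (within the first scan day), with limma adjusted p up to 0.394. It gained a call under 6 of 49 for Klf13 and 3 of 50 for Klf3. The cause was not tested.

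The count of 13 Klf probes in total ChREBP-KO mice stayed at 13 without each mouse in turn and was 8 with a fold of at least 1.5 in addition. In ChREBPβ-deficient mice the count was 0 without each mouse in turn and 2 by the unadjusted Mann-Whitney test (6.13% of all probes). The 10 probes that differed between the effects became 6 with slide as a fixed block (10.9% of all probes) and 2 within the first scan day (4.22%), where fewer mice entered. They became 5 with the added fold (5.33%), and 9 to 12 without each mouse in turn. The 1 probe between the WT littermates became 0 when the scanner flags had to hold on all 31 arrays, which dropped the Klf10 probe because its spot was not flagged as found on every array, 0 with slide as a fixed block, 0 within the second scan day, 0 by the adjusted Mann-Whitney test, and 0 to 1 without each mouse in turn. It became 2 with no filter, 2 with array weights and 2 without the arrays high in adipocyte markers. Of the 44 relations, 5 were called, against 31 without centring, 3 in the β line alone and 0 in the total line alone.

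Uncalled differences near 0 changed sign. In ChREBPβ-deficient mice Klf6 went from -0.02 to 0.0011 with the processed signal, 0.015 with slide as a fixed block, 0.0047 with scan day as a block, 0.17 within the second scan day, 0.046 without the arrays high in adipocyte markers, and -0.10 to 0.11 without each mouse in turn. Klf13 went from 0.03 to -0.032 with slide as a fixed block, -0.030 within the second scan day, -0.026 with Dbp as a covariate, and -0.090 to 0.12 without each mouse in turn, and Klf10 ran from -0.0056 to 0.32. Between the WT littermates Klf11 became -0.0075 with the processed signal, -0.15 within the second scan day, -0.057 with array weights, -0.018 without the arrays high in adipocyte markers, and -0.029 to 0.070 without each mouse in turn. Klf13 became 0.046 within the second scan day and 0.047 with Dbp, Klf15 became 0.020 with slide as a fixed block and 0.0043 within the second scan day, Klf3 became -0.00068 with Dbp, and Klf6 ran from -0.20 to 0.014 without each mouse in turn.

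The deviations of mice with the same replicate number had r from -0.16 to 0.53 in the β line, some of them clearly positive, and from -0.21 to 0.24 in the total line. As both lines held negative values, and no label ties a number to a litter or batch, the numbers were not taken to pair the mice. With the replicate block the counts were 13 in total ChREBP-KO mice, 0 in ChREBPβ-deficient mice, 10 for the difference and 1 between the WT littermates. The Mann-Whitney test and the fit of each pair of groups alone could not be run for the difference between the effects, which needs all 4 groups. The Dbp covariate and the left-out arrays were chosen after seeing the data.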

Other observations

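Among the other Klf and Sp genes, the WT littermates of the total line had higher Klf2 (0.71, limma adjusted p = 1.12e-05) and Klf4 (0.67, limma adjusted p = 0.0162) than those of the β line, and lower Klf1 (-0.26, limma adjusted p = 0.0142). Between these littermates 4 of 10 glucocorticoid-responsive genes were called, all higher, among them Dusp1 (2.07) and Sgk1 (0.80), and 5 of 15 TGF-beta and immediate early genes, all higher, among them Fos (1.95), where 17% of all probes were called. Of the 8 Klf genes, Klf10 alone was called between them.

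Klf6 and Klf10, the members with the greatest changes, had r = -0.43 over the 31 mice after centring on the group means (permutation adjusted p = 0.119), which did not pass. Within the β line r was -0.65 over 16 mice (permutation adjusted p = 0.0782), also short of the threshold, and within the total line it was -0.01.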
